A study of Mus musculus with 6 samples.

Results

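The transcripts described here are those of 56 genes that copy DNA or supply its building blocks, out of 53801 genes listed in each RNA-seq table. The genes were a list of symbols, matched to the tables through Ensembl identifiers, and all 56 were found, protein coding and testable. They fall into 15 licensing genes, 9 genes for activation of the helicase, 9 polymerase genes, 12 genes of the sliding clamp and of strand processing, 6 genes for fork protection and chromatin assembly, and 5 genes of nucleotide supply. No measured value was used to choose them, although the list was drawn up with earlier results of these libraries known.

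The libraries came from CT26, a colon carcinoma line of BALB/c mice, and the study asked how tumour cells that resist immune checkpoint blockade differ from the line they came from. All cells carried lentiviral barcodes (ClonTracer, selected with puromycin), and none of the sequenced cultures was treated. The parental line was a mixed population of barcoded CT26 recovered from tumours, so that it had passed through engraftment as the clones had. Lines B04 and B64 were each grown from 1 cell, with barcodes that had been enriched under anti-PD-1 and anti-CTLA-4, so each stands for a single clone and not for resistant cells in general. By the study's discussion, the clones were isolated after checkpoint blockade, and their expression changes could predate that treatment or be induced by it. There were 2 libraries, A and B, for each of the 3 lines. Although the sample titles speak of tumours, the methods describe RNA from duplicate cultures in RPMI medium, and p-values therefore measure only the spread between duplicates, which may be technical.

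A cell copies its genome once per division. In G1 the origin recognition complex (ORC), with Cdc6 and Cdt1, loads the ring of Mcm2 to Mcm7 onto DNA, a step called licensing, and geminin (Gmnn) blocks Cdt1 once S phase has begun. Kinases then turn the loaded ring into an active helicase, polymerases copy both strands behind it, the clamp Pcna holds them on DNA, and ribonucleotide reductase with the thymidylate enzymes supplies the deoxynucleotides. Most of these genes are transcribed around the start of S phase under E2F factors, and their mRNA is in common use as a sign of proliferating cells in tumours. In bulk RNA, a larger share of cells in S phase and more mRNA per cell cannot be told apart.

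Library totals lay between 19409204 and 23472012 expected counts, a 1.21-fold range, and each of the 56 genes had between 118 and 12101 counts in every library. The fragment length that RSEM implied was 271.8 to 277.3 bases in the parental libraries and in B04 A but 220.8 to 246.2 bases in B04 B and both B64 libraries, and its part in the results was not tested beyond the alternatives named below. Of the leukocyte markers, Cd3e was at 0 throughout, Ptprc, Itgam, Adgre1 and Csf1r stayed under 1 TPM, and the list summed to 23.2 to 24.9 TPM in parental, 33.1 to 33.9 in B04 and 59.5 to 59.6 in B64, carried by Cd14 and Cd68. The 4 endothelial markers summed to at most 0.1 TPM and the 4 erythroid markers to at most 1.08 TPM. Fibroblast markers summed to 11.2 to 13.1 TPM in parental and B04 and to 2.29 and 3.57 TPM in B64, of which Col3a1 made up most outside B64, while Lum was at 0. Of 7 intestinal epithelial markers, Vil1 was at 0, Epcam, Cdh1, Krt8 and Cdx2 were under 1 TPM, and Krt18 and Krt20 were present, with a list sum of 22.4 to 25.4 TPM in parental and B04 and 45.7 to 48.0 TPM in B64. The defining epithelial markers Epcam, Cdh1 and Vil1 were thus at or near 0 in cells labelled as colon carcinoma.

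The replication genes were higher in B04 than in the parental line as a broad shift of modest size, and B64 showed no such shift. The study had already reported, from RNA-seq of these lines, that B04 expressed DNA replication genes more highly, so the rise is not an independent finding. In B04, 32 of the 56 genes rose at an adjusted p under 0.05 in DESeq2, beside 11.2% of the 13218 genes tested. Another 3 fell, beside 12.9% of all genes tested, and these 3 (Orc2, Orc4 and Orc5) are subunits of ORC. Of these, only Orc2 stayed called under every alternative, and the other 3 ORC genes were not called. The median log2 fold change of the 56 genes was 0.28, beside 0.0 for all genes tested, with a range from -0.51 to 0.78 and 51 of 56 values above 0. In B64, 2 genes rose (Mcm2 and Dut), beside 8.87% of all genes tested, and 4 fell (Orc2, Mcm3, Cdc7 and Rrm1), beside 7.45%. Their median log2 fold change in B64 was -0.02, with a range from -0.60 to 0.26. These shares of B64 are near or under the background, and leaving out single libraries left 0 to 1 rises and 1 to 3 falls, the fewest rises without parental A or B64 B and the fewest falls without B64 A. Both comparisons use the same 2 parental libraries. Non-overlap of 2 against 2 libraries was more common than a call. In B64, 11 of the 56 genes lay fully above and 20 fully below the parental libraries, beside the 2 and 4 called. In B04, 47 lay above and 4 below, beside 32 and 3 called. The share over all genes was not counted, so non-overlap is given below as a description only.

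The shift in B04 was present in each of its libraries. Relative to the parental mean, the median log2 ratio of normalised counts over the 56 genes was 0.30 in B04 A and 0.29 in B04 B, whereas it was -0.03 in B64 A and -0.03 in B64 B. Together the 56 genes took 0.547% (A) and 0.546% (B) of parental counts, 0.679% and 0.676% of those of B04, and 0.527% and 0.542% of those of B64. Set against the parental libraries alone, B04 A, the B04 library of like fragment length, gave 17 rises in place of 32 with a median of 0.31, and 13 of the 22 genes named here that were called in B04 stayed called under every alternative.

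**Figure D1:**
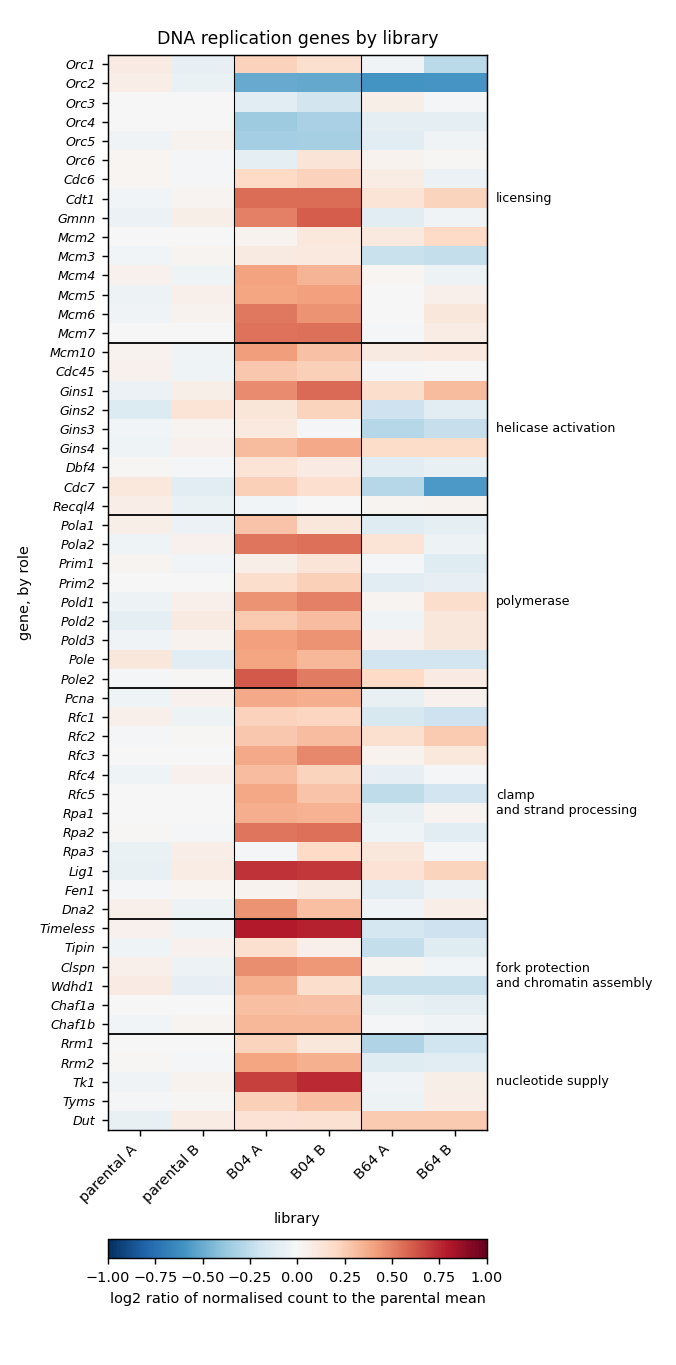
Colour shows the log2 ratio of each gene's normalised count to the mean of the parental libraries, with 56 genes in rows by role and 6 libraries in columns. Both B04 columns are mostly red, with medians of 0.30 and 0.29, apart from the blue Orc2, Orc4 and Orc5, while both B64 columns have a median of -0.03.

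Beside each count by role, 11.2% of all genes tested rose and 12.9% fell in B04, and in B64 8.87% rose and 7.45% fell. The falls among licensing genes in B04 were all in ORC, though not all ORC genes fell. Of the 15, 6 rose and 3 fell, with a median log2 fold change of 0.20. The 6 ORC genes gave 0 rises and 3 falls with a median of -0.24, whereas Mcm2 to Mcm7 gave 4 rises and 0 falls with a median of 0.39. The other 50 genes hold all 32 rises and 0 falls, which follows from the 3 falls being ORC genes and adds no support.

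Cdt1, the loader that brings the MCM ring to ORC, had normalised counts of 2118 and 2208 in parental, 3178 and 3185 in B04, and 2382 and 2519 in B64. All B04 values stood above all others, and B64 stood between. The rise in B04 was 1.47-fold (log2 fold change 0.56, SE 0.07, adjusted p = 1.08e-12 in DESeq2), and the B64 value of 0.18 (SE 0.07, adjusted p = 0.078) missed the threshold. Mcm7, a subunit of the helicase ring, had normalised counts of 6195 and 6223 in parental, 9042 and 9095 in B04, and 6176 and 6538 in B64. B04 lay apart from the other lines, which overlapped. Its rise in B04 was 1.46-fold (0.55, SE 0.06, adjusted p = 4.19e-20), and its B64 value was 0.03 (SE 0.06, adjusted p = 0.794). Mcm6, another subunit of the ring, stood at 3689 and 3875 in parental, 5444 and 5173 in B04, and 3796 and 4099 in B64, and rose 1.40-fold in B04 (0.49, SE 0.07, adjusted p = 2.03e-11). For Mcm6 as well, parental and B64 overlapped and B04 did not meet either.

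Mcm2 and Mcm3, also subunits of the ring, were not called in B04. Mcm2 was at 10720 and 10775 in parental, 11037 and 11578 in B04, and 11520 and 12357 in B64. Its B04 value of 0.07 (SE 0.06, adjusted p = 0.408) was not called, while in B64 it rose 1.11-fold (0.15, SE 0.06, adjusted p = 0.0455), a call kept in 3 of 18 alternatives. Mcm3 was at 4104 and 4249 in parental, 4454 and 4474 in B04, and 3570 and 3545 in B64. The groups did not overlap, and the order was B04, parental, B64. Mcm3 fell in B64 to 0.85 of the parental level (-0.23, SE 0.06, adjusted p = 0.00269), and its B04 value was 0.10 (SE 0.06, adjusted p = 0.296). The call in B64 was kept in 11 of 18 alternatives.

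Of the 6 genes of ORC, the platform on which the ring is loaded, Orc2, Orc4 and Orc5 fell in B04, and Orc1, Orc3 and Orc6 were not called (0.20, -0.15 and 0.02). Orc2 (chromosome 1, 58462771 to 58505109, minus strand, GRCm38) had normalised counts of 3553 and 3235 in parental, 2386 and 2374 in B04, and 2238 and 2249 in B64. Both clones lay under the parental libraries with no overlap. Orc2 fell to 0.70 of the parental level in B04 (-0.51, SE 0.07, adjusted p = 2.62e-10) and to 0.66 in B64 (-0.60, SE 0.08, adjusted p = 1.81e-13), and B64 differed from B04 by -0.09 (SE 0.08, adjusted p = 0.491). It was the 1 gene of the 56 that fell in both clones, and it stayed called in both under every alternative run. Of its exon bases, 29.8% overlap the gene Nif3l1 on the opposite strand, and whether the counting used strand is not stated. Of the 56 genes, 21 share exon bases with another gene, 18 of them with a gene on the opposite strand. The shared part was at least 10% in 8 of the 21.

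Orc4 was at 1349 and 1342 in parental, 1054 and 1074 in B04, and 1266 and 1266 in B64. It fell in B04 to 0.79 of the parental level (-0.34, SE 0.09, adjusted p = 0.00187), and the B64 value was -0.09 (SE 0.09, adjusted p = 0.631). B04 was under both other lines, but TPM for the B04 library B, 48.8, was above that of the parental library B, 47.3. Orc5 was at 672 and 702 in parental, 543 and 547 in B04, and 634 and 669 in B64, and it fell in B04 by the same factor of 0.79 (-0.34, SE 0.12, adjusted p = 0.0307). These calls were less steady than that of Orc2, since Orc4 stayed called in 10 of 19 alternatives and Orc5 in 5 of 19. Leaving out parental A or B04 A left 1 of the 3 ORC calls, that of Orc2.

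Of the other 7 licensing genes, 3 rose in B04 and 0 fell. The 3, named after their values were seen, were Gmnn, which inhibits Cdt1, with a log2 fold change of 0.56, and the ring subunits Mcm4 and Mcm5 with 0.37 and 0.40. The 4 that were not called were Orc1, Orc3, Orc6 and Cdc6, between -0.15 and 0.21. In B64 these 7 genes lay between -0.15 and 0.03 with 0 calls.

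**Figure D2:**
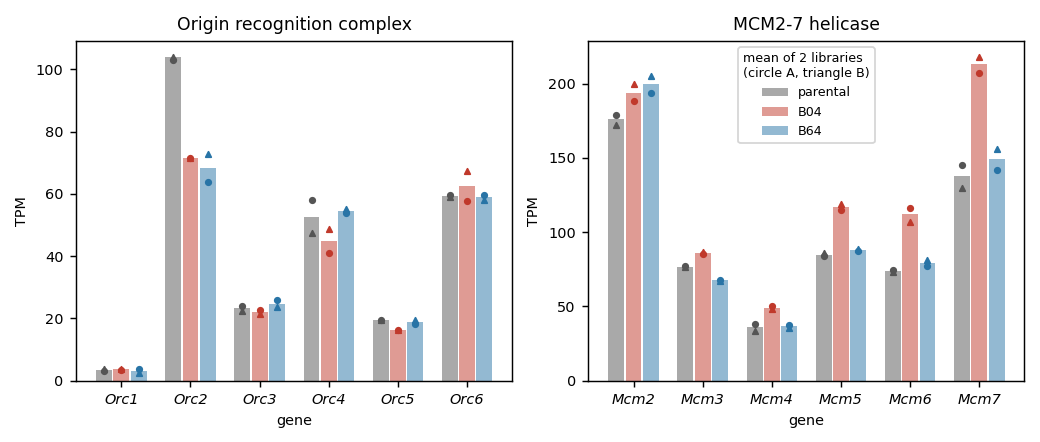
Bars give the mean TPM of 2 libraries for each ORC gene (left) and each gene of the MCM ring (right) in parental, B04 and B64, with library A as a circle and library B as a triangle. Orc2 stands at 104 TPM in parental and at 71.5 and 68.3 in B04 and B64, and Mcm7 rises from 138 to 213 TPM in B04 and stands at 149 in B64.

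Activation of the helicase had the lowest share of rises of the 6 roles in B04, with 3 of 9 genes higher, 0 lower and a median of 0.20. Mcm10, which helps to open the ring at origins, had normalised counts of 1222 and 1163 in parental, 1590 and 1459 in B04, and 1267 and 1276 in B64, and rose 1.28-fold in B04 (0.35, SE 0.09, adjusted p = 0.0012). Gins1, a subunit of the GINS part of the active helicase, was at 429 and 466, then 621 and 661, then 504 and 558 in the same order, and rose 1.43-fold in B04 (0.52, SE 0.14, adjusted p = 0.00117). Gins4, a partner of Gins1, was at 1331 and 1407 in parental, 1708 and 1782 in B04, and 1557 and 1550 in B64, and rose 1.27-fold in B04 (0.35, SE 0.09, adjusted p = 0.000459). For all 3 genes the B64 libraries lay between the other lines, with B64 values of 0.09, 0.25 and 0.18 that were not called. The B04 calls were kept in 15, 15 and 16 of 19 alternatives.

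Cdc7, the catalytic subunit of the kinase that fires licensed origins, was at 477 and 413 in parental, 524 and 499 in B04, and 364 and 299 in B64. The 3 lines did not overlap. It fell in B64 to 0.74 of the parental level (-0.43, SE 0.16, adjusted p = 0.0477), while its B04 value was 0.20 (SE 0.16, adjusted p = 0.412). The B64 call was kept in 4 of 18 alternatives. The other 5 genes of this role (Cdc45, Gins2, Gins3, Dbf4 and Recql4) lay between -0.02 and 0.25 in B04 and between -0.26 and 0.03 in B64, with 0 calls in either.

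Polymerase genes rose in B04 in 6 of 9 cases with 0 falls and a median of 0.36, and none was called in B64, where their median was 0.03 and the range -0.20 to 0.14. Pola2, the B subunit of the priming polymerase alpha, had normalised counts of 1248 and 1326 in parental, 1866 and 1888 in B04, and 1415 and 1244 in B64. It rose 1.46-fold in B04 (0.54, SE 0.09, adjusted p = 1.18e-07). Pold1, the catalytic subunit of the lagging-strand polymerase delta, was at 2880 and 3084 in parental, 4063 and 4217 in B04, and 3039 and 3357 in B64, and rose 1.39-fold in B04 (0.47, SE 0.07, adjusted p = 4.37e-09). In both genes parental and B64 overlapped, and B04 stood above them. Pole2, the second subunit of the leading-strand polymerase epsilon, was at 466 and 476 in parental, 721 and 676 in B04, and 543 and 499 in B64, with a 1.48-fold rise in B04 (0.57, SE 0.13, adjusted p = 0.000153) and a B64 value of 0.14 (SE 0.13, adjusted p = 0.569). Of the other 6, Pold2, Pold3 and Pole rose in B04, chosen for naming after their values were seen, and the range over the 6 was 0.09 to 0.43.

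Genes of the clamp and of strand processing had 9 of 12 members higher in B04, 0 lower and a median of 0.35, beside 0 calls and a median of -0.02 in B64. Lig1, the ligase that seals Okazaki fragments, had normalised counts of 1844 and 2034 in parental, 3196 and 3157 in B04, and 2144 and 2254 in B64. B64 stood above parental without overlap, and B04 stood far above both. The B04 rise was 1.64-fold (0.71, SE 0.08, adjusted p = 6.76e-18), and the B64 value of 0.18 (SE 0.08, adjusted p = 0.106) was not called. Rpa2, a subunit of the protein that coats single-stranded DNA, was at 934 and 923 in parental, 1343 and 1360 in B04, and 902 and 862 in B64, and rose 1.46-fold in B04 (0.54, SE 0.10, adjusted p = 6.41e-07). Pcna, the sliding clamp itself, was at 7973 and 8445 in parental, 10665 and 10566 in B04, and 7789 and 8441 in B64. It rose 1.29-fold in B04 (0.37, SE 0.06, adjusted p = 1.49e-08), with a B64 value of -0.02 (SE 0.06, adjusted p = 0.919). Of the other 9 genes, 6 rose in B04 and the range was 0.06 to 0.43. The annotated copies Pcna-ps1 and Pcna-ps2 held at most 45 counts in any library.

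Timeless, which holds the helicase and the polymerases together at the fork, had the largest log2 fold change of the 56 genes in B04. Its normalised counts were 963 and 905 in parental, 1622 and 1593 in B04, and 827 and 810 in B64, so that the 3 lines did not overlap. The rise in B04 was 1.72-fold (0.78, SE 0.10, adjusted p = 3.21e-14), and the B64 value was -0.19 (SE 0.10, adjusted p = 0.209). Clspn, the adaptor that passes the checkpoint signal from Atr to Chek1, was at 876 and 816 in parental, 1165 and 1141 in B04, and 864 and 831 in B64, and rose 1.36-fold in B04 (0.45, SE 0.10, adjusted p = 0.000187). Chaf1a, the large subunit of the factor that assembles histones on new DNA, was at 2045 and 2054 in parental, 2530 and 2511 in B04, and 1948 and 1925 in B64, with a 1.23-fold rise in B04 (0.30, SE 0.07, adjusted p = 0.000547). Of its exon bases, 52.5% overlap Ubxn6 on the opposite strand. Over all 6 genes for fork protection and chromatin assembly, 4 rose in B04, 0 fell and the median was 0.31, with 0 calls and a median of -0.13 in B64. Of the 3 genes not named above, Chaf1b was called (0.33), and Tipin and Wdhd1 had 0.11 and 0.27.

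Nucleotide supply had 4 of 5 genes higher in B04, 0 lower and a median of 0.27. Tk1, the S-phase thymidine kinase of the salvage route, had normalised counts of 1462 and 1533 in parental, 2411 and 2511 in B04, and 1465 and 1560 in B64. Parental and B64 overlapped, and Tk1 rose 1.64-fold in B04 (0.72, SE 0.08, adjusted p = 3.58e-16), with a B64 value of 0.01 (SE 0.08, adjusted p = 0.954). Rrm2, the small subunit of ribonucleotide reductase, was at 4568 and 4500 in parental, 5945 and 5816 in B04, and 4178 and 4209 in B64. It rose 1.3-fold in B04 (0.38, SE 0.06, adjusted p = 5.94e-09), and its B64 value was -0.11 (SE 0.06, adjusted p = 0.22). Tyms, which makes thymidylate, was at 1304 and 1328 in parental, 1550 and 1620 in B04, and 1267 and 1375 in B64, and rose 1.20-fold in B04 (0.27, SE 0.09, adjusted p = 0.0164). This call was kept in 12 of 19 alternatives and was lost on leaving out any single parental or B04 library.

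Rrm1 and Dut were the nucleotide supply genes called in B64. Rrm1, the large subunit of ribonucleotide reductase, was at 5375 and 5420 in parental, 6305 and 5847 in B04, and 4382 and 4712 in B64. It was the 1 gene of the 56 that rose in B04 (0.17, SE 0.07, adjusted p = 0.0381) and fell in B64 (-0.25, SE 0.07, adjusted p = 0.0021), and these calls were kept in 8 of 19 and 12 of 18 alternatives. Dut, which removes dUTP so that uracil is kept out of DNA, was at 4297 and 4738 in parental, 4974 and 5005 in B04, and 5397 and 5420 in B64. It rose 1.20-fold in B64 (0.26, SE 0.07, adjusted p = 0.001), a call kept in 13 of 18 alternatives, and its B04 value was 0.14 (SE 0.07, adjusted p = 0.0992). Set directly against B04, B64 was at 0.12 (SE 0.07, adjusted p = 0.205) for Dut, which was not called. In B64, Rrm1 was called and Rrm2 was not, and the difference between the subunits was not tested.

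**Figure D3:**
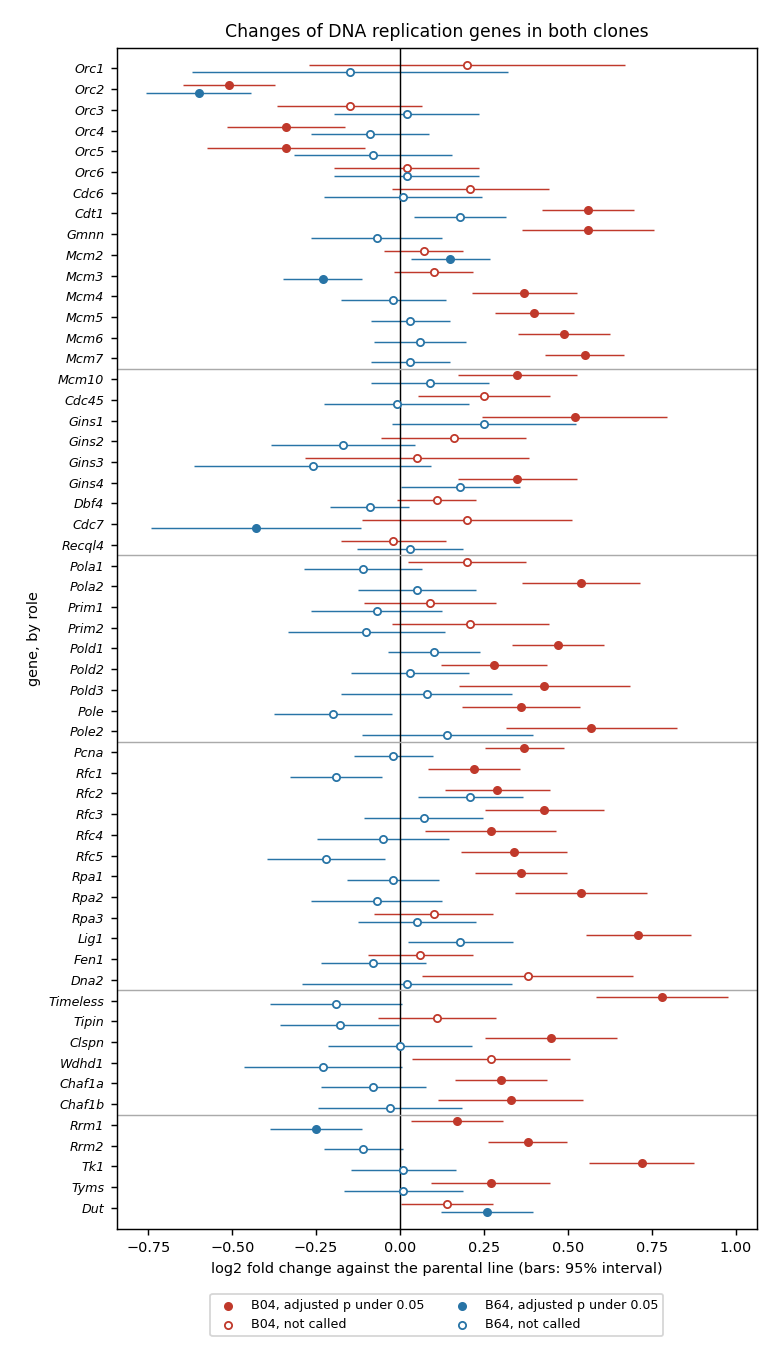
Points give the log2 fold change of each of the 56 genes against the parental line in B04 (red) and B64 (blue), with 95% intervals as bars, and filled points have an adjusted p under 0.05 in DESeq2. In B04, 32 filled points lie right of 0 and 3 lie left of it, and in B64 only 2 and 4 are filled.

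Levels per length spanned a wide range. In the parental line the highest of the 56 by mean TPM was Pcna with 335 ± 2.90 (SD, n = 2), followed by Rpa3 with 301 (294 and 308 in its libraries), Dut with 239 ± 5.59 and Tipin with 222 ± 4.41. The parental values of these 4 genes did not overlap one another. Orc1, an ATP-binding subunit of ORC, was the lowest with 3.33 ± 0.318 TPM, and Dna2, a nuclease for long flaps, followed with 5.2 ± 0.0778 TPM. Within ORC, the order in the parental line was Orc2 (104 ± 0.969 TPM), Orc6 (59.3 ± 0.481), Orc4 (52.6 ± 7.54), Orc3 (23.2 ± 1.13), Orc5 (19.6 ± 0.0849) and Orc1, where Orc6 and Orc4 differed by less than the spread of Orc4. In B04, Orc2 at 71.5 ± 0.113 TPM and Orc6 at 62.5 ± 6.92 TPM stood closer, and in B64 Orc2 was at 68.3 ± 6.38 TPM. Within the MCM ring, Mcm2 with 176 ± 4.82 TPM and Mcm7 with 138 ± 10.1 TPM were the highest in the parental line and Mcm4 with 35.9 ± 3.53 TPM the lowest. In B04 the order of the first 2 was Mcm7 with 213 ± 7.67 TPM and then Mcm2 with 194 ± 8.41 TPM.

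Compared directly, B64 was lower than B04 in 38 of the 56 genes, beside 11.1% of 12855 genes tested, and higher in 1 (Orc4), beside 13.1%. The median log2 difference was -0.35 (all genes 0.0), and its range was -0.97 to 0.26. Of the 32 genes that rose in B04, 29 were lower in B64 than in B04 and 3 were not called. Timeless differed most, at 0.51 of the B04 level (-0.97, SE 0.10, adjusted p = 2.73e-21). The differences of Tk1 (-0.70, SE 0.08) and Cdc7 (-0.63, SE 0.16) came next among the genes named here. By role, B64 was lower than B04 in 7 of 15 licensing genes, 5 of 9 helicase activation genes, 8 of 9 polymerase genes, 8 of 12 clamp and strand processing genes, 6 of 6 fork protection and chromatin assembly genes, and 4 of 5 nucleotide supply genes. Of the 6 ORC genes, 0 were lower and Orc4 was higher (0.25, SE 0.09, adjusted p = 0.032), a call kept in 3 of 19 alternatives. The count of 38 became 23 without B04 A and 24 without B64 A, and it was 21 within the short-fragment libraries.

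Promoter windows from RefSeq on GRCm38.p6, each of 250 bases before and 50 after a start, were found for 46 of the 56 genes. The other 10 were Pole, Recql4, Rfc2, Gins4, Gmnn, Gins2, Prim2, Tipin, Mcm4 and Gins1. Windows were searched on both strands for the E2F words TTTCCCGC, TTTCGCGC, TTTGCCGC and TTTGGCGC, where a TTTGGCGC can overlap a TTTCGCGC of the other strand. At least 1 word stood in the windows of 16 of 46 genes (34.8%), beside 2.61% of the 27018 genes in the table and 4.76% of the 9557 that were also tested here. The CCAAT box was found for 54.3% of the 46, beside 41.1% of all and 43.5% of those tested, and the CHR words TTTGAA and TTCGAA for 19.6%, beside 21.7% of all and 16.4% of those tested. Of the 16 genes with an E2F word, 10 rose in B04, 0 fell and the median log2 fold change was 0.43. Of the 30 without a word, 16 rose, 3 fell and the median was 0.27, and of the 10 with no window, 6 rose with a median of 0.32. Beside these counts, 11.2% of all genes tested rose and 12.9% fell in B04. Calls among all tested genes with a word were not counted. The difference between members with and without a word was not tested. These matches are letters in a window and were not tested as sites.

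The windows of 4 genes are shown to set 3 licensing genes that rose in B04 beside Orc2, which fell, with E2F words in capitals. Licensing genes that were not called in B04 (Orc1, Orc3, Cdc6 and Mcm3) also held such words. Of the largest rises in B04, the windows of Timeless and Tk1 held 0 words, and 1 window of Lig1 held 1. The Timeless window (chr10:128237816-128238115, plus strand) lies inside the gene, whose annotated start is at 128232065. The sequence at that annotated start was not searched. The falls among genes without a word are all ORC genes, so the split by word overlaps the split by ORC. The Mcm6 window (chr1:128359656-128359955, minus strand) holds 3 words, of which a pair overlap at 110 and 106 bases before the start. The Mcm7 window (chr5:138171834-138172133, minus strand) holds 2, one of them 16 bases after the start. The Cdt1 window (chr8:122567765-122568064, plus strand) holds 1, and the Orc2 window (chr1:58505060-58505359, minus strand) holds 0. A further RefSeq window of Mcm7 and one of Orc2 also held 0.
Mcm6: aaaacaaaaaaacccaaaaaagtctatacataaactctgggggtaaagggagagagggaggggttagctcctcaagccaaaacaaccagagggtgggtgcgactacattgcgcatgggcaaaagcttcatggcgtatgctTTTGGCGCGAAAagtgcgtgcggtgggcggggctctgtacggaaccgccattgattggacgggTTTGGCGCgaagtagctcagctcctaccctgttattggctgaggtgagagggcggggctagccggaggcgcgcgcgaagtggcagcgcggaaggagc
Mcm7: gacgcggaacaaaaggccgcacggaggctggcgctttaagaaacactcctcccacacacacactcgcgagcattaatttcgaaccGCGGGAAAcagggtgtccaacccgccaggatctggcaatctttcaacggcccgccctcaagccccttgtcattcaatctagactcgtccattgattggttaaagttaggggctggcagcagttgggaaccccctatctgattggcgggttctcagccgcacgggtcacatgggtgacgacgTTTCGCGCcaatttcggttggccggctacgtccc
Cdt1: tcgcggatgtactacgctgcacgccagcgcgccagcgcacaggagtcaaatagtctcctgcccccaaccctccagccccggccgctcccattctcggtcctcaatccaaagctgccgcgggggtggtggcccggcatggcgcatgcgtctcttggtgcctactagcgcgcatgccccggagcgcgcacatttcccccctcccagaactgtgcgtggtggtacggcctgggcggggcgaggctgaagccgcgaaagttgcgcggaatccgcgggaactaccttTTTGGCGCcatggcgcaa
Orc2: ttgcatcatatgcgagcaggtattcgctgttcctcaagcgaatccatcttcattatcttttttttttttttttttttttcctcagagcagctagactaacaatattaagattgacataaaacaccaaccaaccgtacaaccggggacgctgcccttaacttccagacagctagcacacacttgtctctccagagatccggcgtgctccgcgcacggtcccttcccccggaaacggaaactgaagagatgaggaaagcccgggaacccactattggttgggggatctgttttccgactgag

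Chromosomal neighbours were set beside each gene, as the median log2 fold change of up to 25 nearest tested genes on each side. All but 4 genes had 50 neighbours, and near chromosome ends Mcm10, Rfc3, Rpa3 and Chaf1b had 38, 25, 43 and 42. For Orc2 this median was -0.32 in B04 and -0.34 in B64, the lowest of the 56 neighbourhoods in both lines, beside the gene's own -0.51 and -0.60. Its fall stood in a stretch of chromosome 1 whose genes were lower in both clones. Mcm3 and Prim2, a primase subunit, also lie on chromosome 1, with neighbour medians of -0.14 and -0.25 in B04 and of -0.17 and -0.21 in B64. Mcm3 itself was at 0.10 in B04, above its neighbours, and at -0.23 in B64, near them. Recql4, a helicase needed for origin firing, had the highest neighbour median in B04, 0.27, and was itself at -0.02. For the 3 largest rises in B04, of 0.78 for Timeless, 0.72 for Tk1 and 0.71 for Lig1, the neighbour medians were -0.14, -0.05 and 0.11. In B04, 51 of 56 genes lay above their own neighbours, by a median of 0.29. In B64, 19 of 56 did, and the median difference was -0.02.

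**Figure D4:**
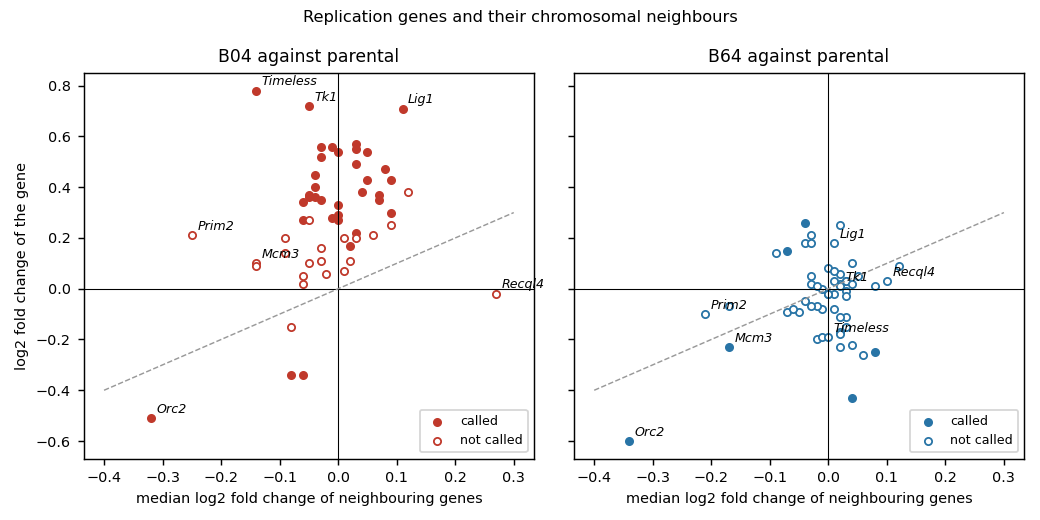
Each point is 1 of the 56 genes, with the median log2 fold change of its neighbouring genes on the x axis and its own log2 fold change on the y axis, in B04 (left) and B64 (right), and the dashed line marks equal values. Orc2 lies at the far left of both panels, at -0.32 and -0.34, and 51 of 56 points lie above the dashed line in B04.

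Genes of related pathways were counted in the same way, from lists that are separate from the 56. Beside these counts, 11.2% of all genes tested rose and 12.9% fell in B04, and in B64 8.87% rose and 7.45% fell. Of 35 further replication and deoxynucleotide genes, 13 rose and 2 fell in B04 with a median log2 fold change of 0.22, and 1 rose and 7 fell in B64 with a median of -0.08. Top2a, which untangles copied DNA, had normalised counts of 8537 and 8065 in parental, 11083 and 10294 in B04, and 7803 and 7848 in B64 (B04 0.36, SE 0.06, adjusted p = 1.86e-08). Dtl, which targets Cdt1 for destruction in S phase, had a log2 fold change of 0.53 in B04 (SE 0.10, adjusted p = 1.64e-06), and Slbp, which binds the ends of histone mRNAs, had 0.43 (SE 0.08, adjusted p = 2.47e-06). Nme1, a nucleoside diphosphate kinase, fell in both clones, from 3452 and 3586 in parental to 2736 and 2413 in B04 (-0.45, SE 0.08, adjusted p = 1.14e-07) and 2776 and 2805 in B64 (-0.33, SE 0.08, adjusted p = 0.000239).

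Replication checkpoint genes gave 7 rises and 1 fall of 18 in B04 with a median of 0.28, and 0 rises and 3 falls in B64 with a median of -0.16. The rises included Brca2, which protects stalled forks (0.67, SE 0.11, adjusted p = 2.42e-08), Fanci of the Fanconi pathway (0.89, SE 0.15, adjusted p = 1.7e-07), the deubiquitinase Usp1 (0.33, SE 0.08, adjusted p = 0.00019) and the nuclease Exo1 (0.59, SE 0.15, adjusted p = 0.000926). Of 28 mitosis genes, 20 (71.4%) rose and 0 fell in B04 with a median of 0.29, a larger share than the 57.1% of the 56 replication genes. In B64, 3 mitosis genes (10.7%) rose, near the 8.87% of all genes tested, and 0 fell, with a median of 0.07. Kif20a, a kinesin of cytokinesis, had normalised counts of 2531 and 2494 in parental, 4208 and 4086 in B04, and 3333 and 3316 in B64, and was called in both clones (B04 0.72, SE 0.07, and B64 0.40, SE 0.07). Aurkb, Kif11 and Cdc20, for chromosome alignment, spindle bipolarity and anaphase onset, rose in B04 by log2 fold changes of 0.59, 0.56 and 0.45 and had 0.11, -0.10 and 0.14 in B64.

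The E2F and pocket protein list, which holds the factors known to drive replication genes and their repressors, had the median nearest 0 of the 4 related lists in B04, with 6 rises and 1 fall of 18 and a median of 0.09. In B64, 0 rose and 6 fell, with a median of -0.24. Rbl2, a pocket protein of resting cells, was at 384 and 373 in parental, 643 and 660 in B04, and 460 and 413 in B64 (B04 0.78, SE 0.14, adjusted p = 4.05e-07). The activator E2f2 had 0.79 in B04 (SE 0.17, adjusted p = 2.59e-05) and 0.14 in B64 (adjusted p = 0.702). E2f7, an atypical repressor, had 0.47 in B04 (SE 0.10, adjusted p = 8.47e-05) and -0.28 in B64 (adjusted p = 0.0618). E2f5, which represses in quiescent cells, was at 259 and 286 in parental, 166 and 156 in B04, and 228 and 221 in B64, and fell in B04 (-0.76, SE 0.20, adjusted p = 0.00142). Activators and repressors were thus both among the genes called in B04.

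**Figure D5:**
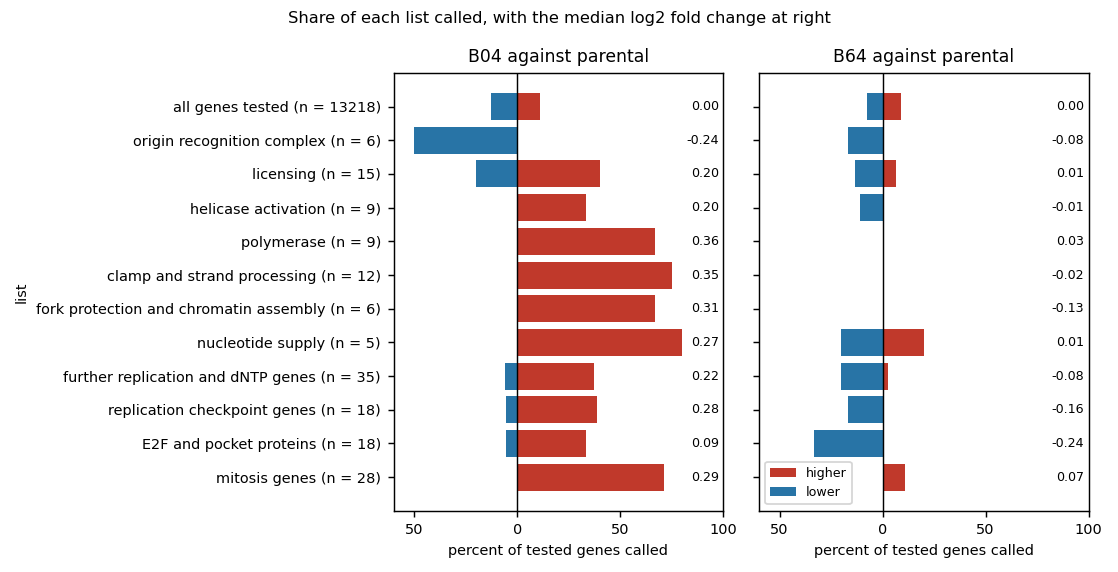
Bars give the percent of tested genes called higher (red, right of 0) and lower (blue, left of 0) against the parental line in B04 (left panel) and B64 (right panel), for all genes tested, the roles of the replication genes and 4 related lists, with the median log2 fold change of each at the right. In B04, red bars of the replication roles other than ORC exceed the 11.2% of all genes, and ORC has 0 rises beside 3 falls of 6.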

How the data were processed

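RNA was measured in 6 libraries, 2 for each of the parental line, B04 and B64, grouped by their sample titles. The authors aligned reads to mm10 with STAR and quantified genes with RSEM, and the release of the annotation is not given in the sources used here. The deposited tables hold expected counts, estimated by RSEM with reads that match several genes shared out among them. The TPM values that the authors deposited are scaled by effective gene length and by library total. Gene length and effective length, also from the deposited tables, gave the implied fragment length, and libraries above and below 250 bases formed 2 classes. FPKM was not used here. Of 53801 identifiers, 53620 (99.7%) matched a symbol in GENCODE M21, on GRCm38, the assembly of mm10. Coordinates and exon overlaps come from that annotation and count from 1.

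Expected counts were rounded and entered DESeq2 in R 4.3.3 (version 1.42.0 of the package the study used), in 1 fit over all 6 libraries with the line as its only term (Wald test, independent filtering, Benjamini-Hochberg over all genes tested, adjusted p under 0.05). Normalised counts were divided by DESeq2 size factors. Fold changes carry the standard error (SE) of the log2 value, and intervals are 1.96 SE wide on each side. TPM is given as mean ± SD. Depth sets the precision, and no gene described had fewer than 118 counts in a library. Alternatives used edgeR (version 4.0.16) with TMM factors, TMM factors in DESeq2, no independent filtering, a minimum of 10 counts in 2 libraries, only the lines compared, the replicate letter or the fragment-length class as a block, 1 fragment-length class, effective-length and GC offsets, limma (version 3.58.1) on log2(TPM + 1) and log2(TPM + 0.1) with a filter at 1 TPM and on log2(TPM + 1) without it, and each library left out. DESeq2, edgeR and limma were also tested on simulated counts, which held no difference in fragment length and so do not cover that imbalance.

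The genes and all lists were chosen with earlier results of these data known, so no test was run over a list. Genes named with values are, in each role, the 3 with the smallest adjusted p in B04, up to 3 called in B64, those that fell in B04, and Pcna, Mcm2, Tyms and Rrm2, common labels of S phase. From each related list up to 4 genes with the smallest adjusted p in B04 are named.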

Additional observations from a re-analysis of the deposited data

Results flagged for a closer look

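The direct test of B64 against B04 in DESeq2 is also the test of whether the changes of the 2 clones from their shared parental line differ. By this test B64 was lower in 38 of the 56 replication genes and higher in 1. Among the licensing genes described by name, the log2 difference was -0.38 for Cdt1, -0.33 for Mcm3, -0.43 for Mcm6, -0.51 for Mcm7 and 0.25 for Orc4. For helicase activation it was -0.26 for Mcm10 and -0.63 for Cdc7, and for polymerases -0.50 for Pola2, -0.37 for Pold1 and -0.42 for Pole2. Pcna, Rpa2 and Lig1 gave -0.39, -0.62 and -0.53. At the fork, Timeless gave -0.97, Clspn -0.44 and Chaf1a -0.38. In nucleotide supply, Rrm1 gave -0.42, Rrm2 -0.49, Tk1 -0.70 and Tyms -0.26. Of these 20 differences, 14 stayed past the threshold under every alternative, and Orc4, Mcm10, Tyms, Cdc7, Pole2 and Clspn stayed past it in 3, 7, 9, 12, 12 and 17 of 19.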

How the results depend on the processing

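None of the named genes that were called reversed its direction in these alternatives. Rises in B04 numbered 22 under the fragment-length block and 22 in limma without a filter, beside 32 in the main fit. Over all genes, calls in B04 numbered 1596 and 1323 in these fits and 4281 in edgeR, beside 3181 in the main fit. The counts by setting are thus not set against a fixed background. The median over all genes in B04 was 0.06 in limma on log2(TPM + 1), 0.07 on log2(TPM + 0.1) and 0.0 in the main fit. Against a median of 0.28 in B04, edgeR, a minimum of 10 counts and the replicate block gave 0.29, the fragment-length block and the GC offset 0.30, 1 fragment-length class and the effective-length offset 0.31, limma 0.37 (0.38 with the smaller pseudocount) and single libraries left out 0.28 to 0.30. The 32 rises became 38 in edgeR, 17 within 1 fragment-length class and 22 to 29 with single libraries left out. The 3 falls became 1 under the fragment-length block, 1 class, both offsets and every limma run, and 1 to 2 with single libraries left out. In B64 the 2 rises became 1 under TMM factors, without independent filtering and with only the lines compared, 0 under the fragment-length block, the effective-length offset and limma without a filter, and 0 to 1 with single libraries left out. The 4 falls became 6 in edgeR, with TMM factors and with the GC offset, 1 under the fragment-length block and limma, 2 under the effective-length offset, and 1 to 3 with single libraries left out. The median of -0.02 became -0.03 (TMM, fragment-length block), -0.01 (minimum of 10 counts, limma), -0.05 (effective length), -0.04 (GC) and -0.04 to -0.02 with single libraries left out. Between the clones, the 1 rise became 2 in edgeR and 0 in every other alternative but TMM factors and the minimum of 10 counts, and 0 with each library left out. The 38 falls became 23 under the fragment-length block, 21 within 1 class, 22 in limma without a filter and 23 to 35 with single libraries left out. The median of -0.35 became -0.36 (TMM, both offsets), -0.38 and -0.40 (limma, larger and smaller pseudocount) and -0.36 to -0.31. Same-lettered libraries did not deviate together (correlations of 0.11, 0.01 and -0.05 over 11996 genes), so letters were not taken as pairs, and the replicate block gave 29 rises and 2 falls in B04 and 34 falls and 0 rises between the clones. On log2(TPM + 1) limma gave 3 rises and 1 fall in B64 beside 2 and 4 in DESeq2, and the share of rises among all calls was 67.3% in B04 and 68.2% in B64, beside 46.4% and 54.3% in DESeq2, and 340 genes were called in B64 under the fragment-length block beside 2157. Both parental libraries had long fragments, so B64 cannot be set against them within 1 class. The causes were not tested. Where a library was left out or 1 class was used, a line with 1 library was assumed to vary like the others.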
